A study of Mus musculus with 2 samples.

Results

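Neurotrophins are secreted growth factors that keep sensory and sympathetic neurons alive, and Schwann cells, the glia of peripheral nerves, both make them and carry receptors for them. The 8 genes described here are the ligand genes Bdnf, Ntf3 and Ntf5 and the receptor genes Ngfr, Nradd, Sort1, Ntrk2 and Ntrk3, taken by gene name from the 55323 rows of the expression table, in which each has exactly 1 row. RNA had been sequenced from TgS1 cells, which the labels call a Schwann cell line of genotype TTR V30M tg, a mouse line with a human transthyretin transgene that carries a variant of hereditary amyloidosis. One library came from cells in long-term culture in DMEM, a common culture medium, and 1 from cells in long-term culture in SCM, a medium whose name the labels do not spell out. Both libraries share the line and the transgene, no control line without the transgene was analysed here, and the series title places the study in the question of how transthyretin expression varies with the repair state of the Schwann cell.

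Each mature neurotrophin binds a Trk receptor tyrosine kinase with preference: BDNF and neurotrophin-4 (Ntf5) bind TrkB (Ntrk2), and neurotrophin-3 (Ntf3) binds TrkC (Ntrk3). They also bind p75, the product of Ngfr, a receptor of the tumour necrosis factor receptor family with a death domain in its cytoplasmic part. The uncleaved precursors, the proneurotrophins, bind p75 together with sortilin (Sort1) or its relatives. Schwann cells of an injured nerve are known for high p75 and for making BDNF, and glial cells mostly make TrkB forms that lack the kinase.

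Values are FPKM, fragments per kilobase of gene length, scaled to the fragments counted in the library, and reads are the whole numbers of fragments recovered from them. The DMEM library held 29085791 reads and the SCM library 36666676. Each medium has 1 library, so no difference below could be set against replicate spread and no test was made. Intervals are 95% exact intervals of the read counts (Poisson for a level, Clopper-Pearson for a ratio). They cover counting error only and hold no spread between cultures, because each medium has 1 library. PCR copies were not told apart by identifiers, so the intervals take each read as independent. A row was called measured at 1 FPKM or more in 1 or both libraries, and higher or lower at 2-fold on the scale of log2(FPKM + 1), which understates the ratio of low genes. Fold values are plain FPKM ratios. The labelled cell type fitted its markers, since Sox10, S100b, Erbb3, Foxd3 and Cdh19 each stood at 20.8 FPKM or more in both libraries, while Egr2, a factor of myelinating cells, stayed below 1 FPKM. Of 35 marker genes of fibroblasts, neurons, leukocytes, endothelium, pericytes, perineurium and melanocytes, 15 had 0 reads in both libraries and the highest, Mitf, had 5.85 FPKM in DMEM and 6.50 in SCM. These lists summed to 12.8 FPKM in DMEM and 18.2 in SCM, with Itgb4 and Cspg4 called higher in SCM, and their part in the results below was not tested.

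The p75 receptor gene dominated this family in both media, the sortilin gene was the one member called between them, and the ligand genes were low. Of the 8 genes, 5 were measured, each of them at 1 FPKM or more in both libraries. Sort1 was at least 2-fold higher in SCM, 0 were lower and 4 lay within 2-fold. Among all 12334 measured rows 3.10% were called higher and 2.80% lower, 5.89% in all. The median log2 ratio of the 5 measured members was 0.29, beside -0.03 over all measured rows. Ntrk3, Ntf3 and Ntf5 stayed under 1 FPKM in both libraries.

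**Figure D1:**
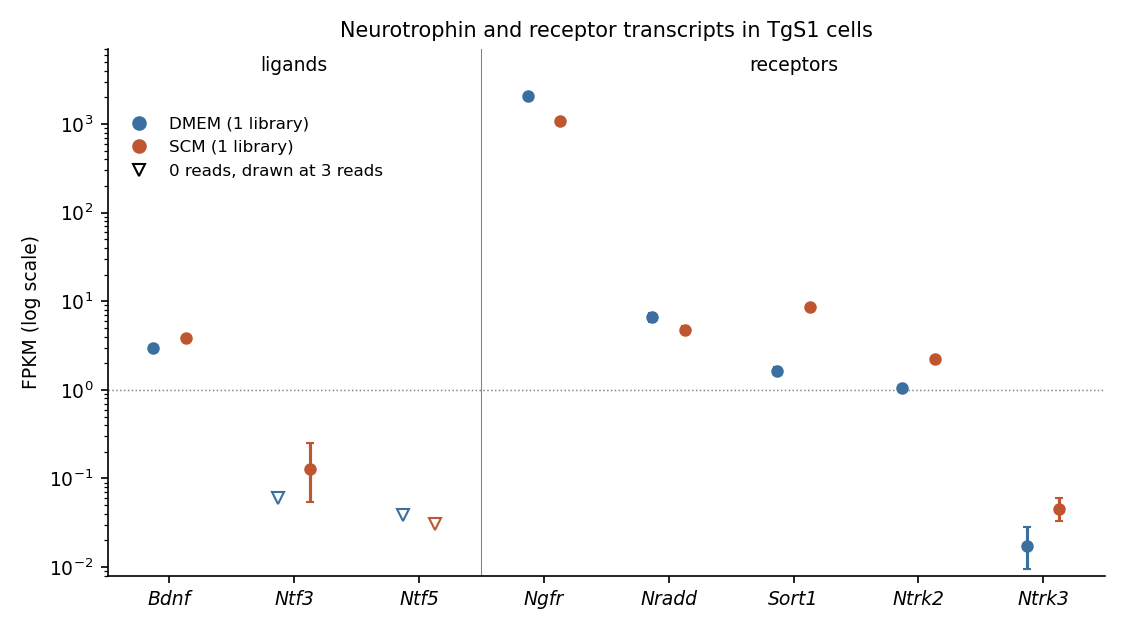
FPKM (log axis) of the neurotrophin ligand genes and receptor genes in the DMEM library (blue) and the SCM library (orange), with 95% Poisson intervals of the read counts as bars. Genes with 0 reads are drawn as open triangles at the level of 3 reads, and the dotted line marks 1 FPKM. Ngfr stands at 2061 and 1079 FPKM, and the other genes lie below 10 FPKM.

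Ngfr (ENSMUSG00000000120), which encodes the low-affinity neurotrophin receptor p75, had 2061 FPKM in DMEM, from 206561 reads, and 1079 FPKM in SCM, from 136379 reads. It was the member with the highest level in both libraries. It took 0.710% of all reads in DMEM and 0.372% in SCM, and was the row with rank 7 by FPKM in DMEM and rank 17 in SCM. The level was 1.91-fold lower in SCM (counting interval 1.90 to 1.92), a log2 ratio of -0.93 that falls short of the 2-fold limit. Among the 238 rows at 100 FPKM or above in each library, 9 had a ratio as low as that of Ngfr or lower, Ngfr included. That set leaves out rows below 100 FPKM in SCM, however abundant in DMEM. Among all measured rows the log2 ratio of Ngfr stood at percentile 3.11. From 2 bulk libraries, fewer cells with the transcript and less transcript per cell cannot be told apart. Sox10, the lineage factor of Schwann cells, had 126 FPKM in DMEM and 113 in SCM, so Ngfr went from 16.4 times the level of Sox10 in DMEM to 9.52 times in SCM.

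Nradd (ENSMUSG00000032491) encodes a p75 homologue with a death domain and a short extracellular part that lacks the neurotrophin-binding repeats. It had 6.57 FPKM in DMEM, from 347 reads, and 4.74 FPKM in SCM, from 316 reads, 1.38-fold lower (1.19 to 1.62). Both p75-type genes thus had lower values in SCM, and Nradd lay within 2-fold at percentile 13.7 of all measured rows. Ngfr stood 314 times above Nradd in DMEM (283 to 350) and 228 times above it in SCM (204 to 255). Because so abundant a transcript could lend reads to a homologue, the coding sequences were searched for shared stretches. The longest run of identical bases is 13 long, and both genes are shown around it below, with that run in capitals (GENCODE M21 transcripts on GRCm38, Ngfr at chr11:95574224-95574284 and Nradd at chr9:110622105-110622165, both on the minus strand, each within 1 coding exon).
Ngfr: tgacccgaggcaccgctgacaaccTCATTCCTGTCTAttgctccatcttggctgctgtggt
Nradd: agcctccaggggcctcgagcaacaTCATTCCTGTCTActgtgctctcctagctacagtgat
Of the 61 bases shown, 40 are identical. Untranslated parts were not compared, and no source used here gives the read length.

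The Ngfr start site lies in GC-rich sequence. The 250 bases before it hold 70.4% G and C, against a median of 52.4% over 32851 such windows of mouse genes and 69.2% at their highest decile. The letters GGGCGG, the GC box bound by Sp1-type factors, were found 4 times on either strand, and 32.7% of all windows hold the motif at least once. TATAAA was not found there, and 12.4% of all windows hold it. The window before Ntrk2, whose transcript stood at 1.04 FPKM in DMEM beside the 2061 FPKM of Ngfr, has 62.8% G and C and neither motif. Windows were at hand for 5 of the 8 members, and not for Sort1, Ntrk3 and Ntf5. Other members hold GC boxes too. The Nradd window, at 66.4% G and C, holds 3 GC boxes, and each of the 2 windows of Ntf3, with 0 reads in DMEM, holds 1. GENCODE M21 gives 59 bases of the Nradd window as exon, and 2 of its GC boxes lie in the stretch before them. For the Ntf3 window at chr6:126166745-126166994 it gives 166 bases as exon, and the stretch before them holds 0 GC boxes. The Bdnf window at chr2:109676782-109677031 holds 2, that at chr2:109692777-109693026 holds 1, and the other Bdnf windows hold none. The Ngfr and Ntrk2 windows are shown to set side by side the start regions of the most abundant receptor gene and of the low Trk gene, with GC boxes in capitals (RefSeq starts on GRCm38.p6, chr11:95587736-95587948 on the minus strand for Ngfr, without 37 bases that GENCODE M21 gives as exon, and chr13:58806319-58806568 on the plus strand for Ntrk2). The stretch shown for Ngfr holds 3 of its 4 GC boxes.
Ngfr: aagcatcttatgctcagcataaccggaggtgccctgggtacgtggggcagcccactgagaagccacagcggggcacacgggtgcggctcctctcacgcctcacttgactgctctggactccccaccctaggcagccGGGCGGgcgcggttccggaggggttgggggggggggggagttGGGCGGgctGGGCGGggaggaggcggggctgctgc
Ntrk2: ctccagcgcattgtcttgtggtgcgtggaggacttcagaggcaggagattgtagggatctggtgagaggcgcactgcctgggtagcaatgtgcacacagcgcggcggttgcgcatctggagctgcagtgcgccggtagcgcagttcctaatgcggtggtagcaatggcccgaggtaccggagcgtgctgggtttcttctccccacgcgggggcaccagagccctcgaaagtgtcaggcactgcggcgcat
A match of letters is a description and not a binding site.

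Sort1 (ENSMUSG00000068747) encodes sortilin, a sorting receptor of the Golgi and endosomes that carries proneurotrophins and joins p75 at the cell surface. It had 1.63 FPKM in DMEM, from 359 reads, and 8.67 FPKM in SCM, from 2405 reads. The SCM library was the higher one, 5.31-fold (4.75 to 5.95), and the intervals of both levels, 1.47 to 1.81 FPKM and 8.32 to 9.02 FPKM, do not overlap. Its log2 ratio of 1.88 stood at percentile 99.6 of all measured rows. It was called higher under all 12 other settings tried, some of which could not remove a call. Ngfr and Sort1 differed in opposite directions, so the level of Ngfr was 1264 times that of Sort1 in DMEM (1139 to 1406) and 125 times in SCM (120 to 130). Sortilin has 4 relatives in the mouse, and Sorl1, Sorcs1 and Sorcs3 had 0 reads in both libraries. Sorcs2, another proneurotrophin receptor that works with p75, had 15.1 FPKM in DMEM and 17.2 FPKM in SCM, 1.14-fold higher (1.10 to 1.19). Sorcs2 was therefore 9.23 times the level of Sort1 in DMEM and 1.98 times in SCM.

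**Figure D2:**
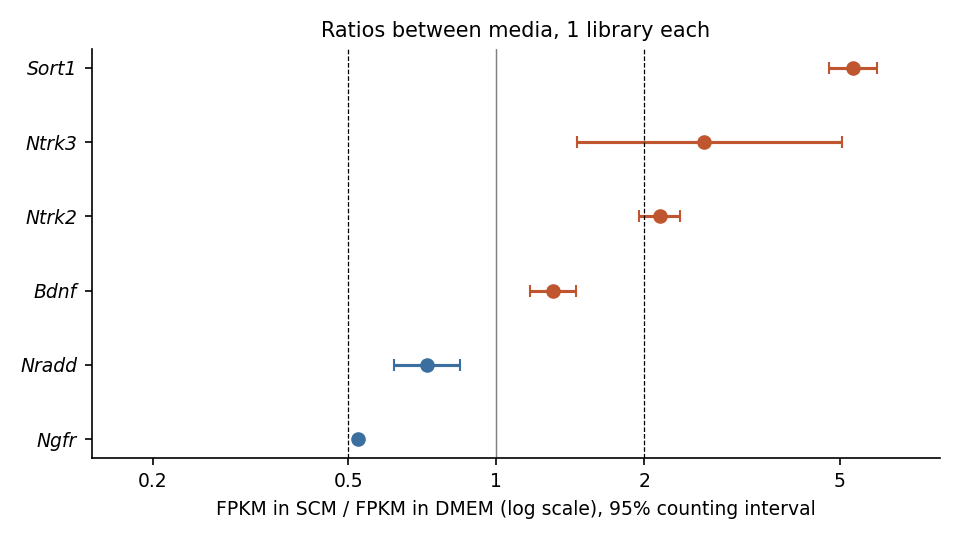
Ratio of FPKM in SCM to FPKM in DMEM (log axis) for the 6 members with reads in both libraries, with 95% counting intervals as bars. Dashed lines mark 2-fold in plain FPKM. Sort1 has the highest ratio at 5.31, and Ngfr, at 0.524, lies just inside the lower line with an interval narrower than its point.

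Ntrk2 (ENSMUSG00000055254), the gene of TrkB, had 1.04 FPKM in DMEM, from 584 reads, and 2.24 FPKM in SCM, from 1585 reads. The plain ratio was 2.15 (1.96 to 2.37). On the scale used for the calls it lay within 2-fold, at a log2 ratio of 0.67 and percentile 93.7, and it passed 2-fold with a pseudocount of 0.1, with its median transcript length and in reads scaled to library size alone (RPM), without gene length. Ntrk3 (ENSMUSG00000059146), the gene of TrkC, had 15 reads in DMEM, 0.0171 FPKM, and 50 reads in SCM, 0.0452 FPKM. Its ratio of 2.64 had the widest interval among the members with reads in both libraries (1.46 to 5.07). Both Trk genes had more reads in SCM relative to library size, and Ntrk2 stood 60.9 times above Ntrk3 in DMEM and 49.6 times in SCM. In the table the exons of all transcripts of a gene are joined, so kinase-bearing and truncated Trk transcripts cannot be told apart.

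Kinase domains are the most alike part of the Trk family, and the longest coding run that Ntrk2 and Ntrk3 share has 23 bases. It is shown here in capitals (GRCm38, chr13:59054383-59054453 on the plus strand for Ntrk2 and chr7:78250713-78250783 on the minus strand for Ntrk3). How well reads of the pair can be assigned was not tested.
Ntrk2: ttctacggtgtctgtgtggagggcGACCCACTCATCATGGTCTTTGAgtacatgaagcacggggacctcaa
Ntrk3: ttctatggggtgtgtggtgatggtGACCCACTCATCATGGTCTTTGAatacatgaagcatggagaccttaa
In this stretch 60 of 71 bases are identical.

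Bdnf (ENSMUSG00000048482), the gene of brain-derived neurotrophic factor, was the highest ligand gene in both libraries. It had 2.97 FPKM in DMEM, from 537 reads, and 3.87 FPKM in SCM, from 882 reads, 1.30-fold higher (1.17 to 1.45) and within 2-fold. Ntf3 (ENSMUSG00000049107), the gene of neurotrophin-3, had 0 reads in DMEM and 8 reads in SCM, 0.127 FPKM (0.0550 to 0.251). Against a floor of 3 reads in the DMEM library, 0.0602 FPKM, Ntf3 was at least 2.12-fold higher in SCM. That value takes the 8 reads as exact, and the lower limit of the ratio with the counting error of both libraries was 1.35. Ntf5 (ENSMUSG00000074121), the gene of neurotrophin-4, had 0 reads in both libraries, where the floor of 3 reads stands at 0.0389 FPKM in the DMEM library and 0.0308 FPKM in the SCM library, and the exact intervals end at 0.0478 and 0.0379 FPKM. Bdnf was thus the one ligand gene of the set above 1 FPKM in either medium.

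The 3 ligand genes of the set together came to a total of 2.97 FPKM in DMEM and 4.0 in SCM, beside 2085 and 1112 FPKM for the receptor genes Ngfr, Nradd, Sort1, Sorcs2, Ntrk2 and Ntrk3. Ngfr made up 98.8% of that receptor sum in DMEM and 97.0% in SCM. Set against the receptor of its own factor, Bdnf stood at 2.85 times the level of Ntrk2 in DMEM (2.53 to 3.21) and 1.73 times in SCM (1.59 to 1.88) with the authors' gene lengths. That order turns with the length used: with the median protein-coding transcript length of each gene in GENCODE M21, Bdnf had 4.73 FPKM in DMEM and 6.16 in SCM, below Ntrk2 at 6.59 and 14.2 FPKM.

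Bdnf and Ntf3 are alike near the end of the mature factor. Their longest shared coding run has 17 bases, in capitals below, and 45 of the 65 bases shown are identical (GRCm38, chr2:109724081-109724145 on the plus strand for Bdnf and chr6:126101736-126101800 on the minus strand for Ntf3). The pair is shown because Ntf3 rests on 8 reads beside the 882 of Bdnf in SCM.
Bdnf: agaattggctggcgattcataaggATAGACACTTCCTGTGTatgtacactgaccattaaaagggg
Ntf3: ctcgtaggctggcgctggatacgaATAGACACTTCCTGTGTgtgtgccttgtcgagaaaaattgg
Which bases of Ntf3 those 8 reads cover is not recorded in the table.

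Bdnf is transcribed from several start sites, each with its own first exon, and neuronal activity acts on one of them through the factor CREB. RefSeq gives 7 start windows for Bdnf, and the letters TGACG, the core of the cyclic AMP response element, were found on either strand in 1 of them and in 17.8% of all windows. That window is shown with the match in capitals, on the plus strand of GRCm38.p6 at chr2:109692186-109692435.
Bdnf: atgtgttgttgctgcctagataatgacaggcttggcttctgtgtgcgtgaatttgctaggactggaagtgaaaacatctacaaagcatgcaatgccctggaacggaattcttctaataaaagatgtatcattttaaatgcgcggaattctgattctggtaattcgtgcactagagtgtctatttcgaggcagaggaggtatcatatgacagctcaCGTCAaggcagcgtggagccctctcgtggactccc
The full element TGACGTCA was in none of the 7 Bdnf windows and in 1.55% of all windows. The table sums all Bdnf transcripts, 11 in number, so the share of any start site in the 2.97 and 3.87 FPKM is not known.

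By the authors' gene lengths, the order of the levels was Ngfr, Nradd, Bdnf, Sort1, Ntrk2 and Ntrk3 in DMEM, with Ntf3 and Ntf5 at 0 reads. In SCM it was Ngfr, Sort1, Nradd, Bdnf, Ntrk2, Ntf3 and Ntrk3, with Ntf5 at 0 reads. The counting intervals of the ratios between neighbours excluded 1 at each step between genes with reads. The closest were Nradd over Bdnf in SCM, at 1.23 (1.07 to 1.40), and Sort1 over Ntrk2 in DMEM, at 1.57 (1.37 to 1.79). Sort1 moved from the fourth place to the second. The order below Ngfr depends on the gene length that divides the reads. The authors' lengths join all exons of a gene, 19292 bases for Ntrk2 and 3446 for Ngfr, whereas the median protein-coding Ntrk2 transcript of GENCODE M21 has 3049 bases. With the median transcript length of each gene, Ntrk2 had 6.59 FPKM in DMEM and 14.2 FPKM in SCM, above Sort1 at 1.81 and 9.62 FPKM, and Nradd had 14.9 and 10.8 FPKM. Ngfr had the highest level under each length tried. Plain ratios between media do not change with length, but ratios on the log2(FPKM + 1) scale do, and Ntrk2 was called higher in SCM with its median transcript length, though not with its longest.

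**Figure D3:**
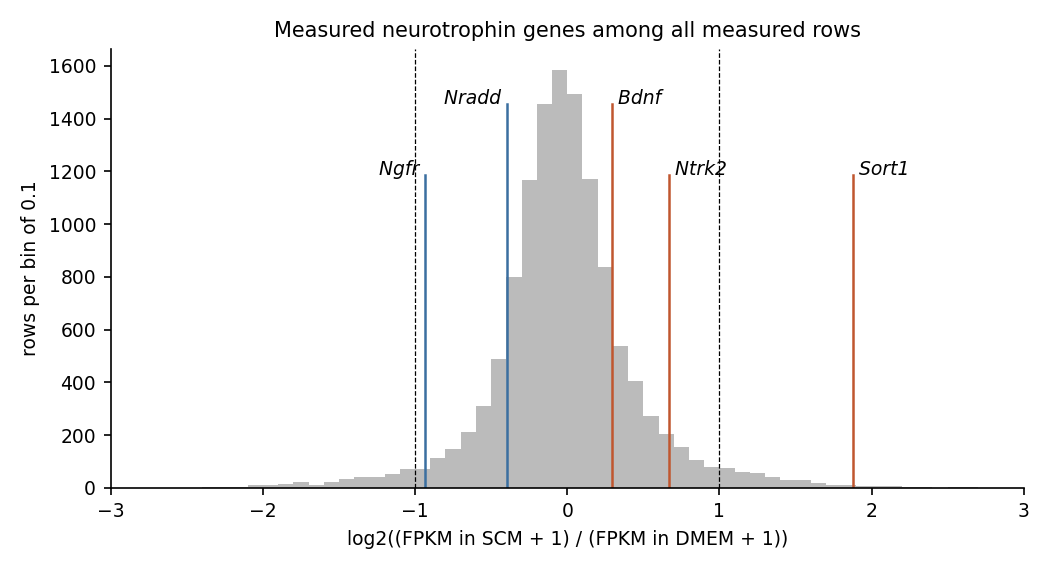
Number of rows per bin of 0.1 in log2((FPKM in SCM + 1) / (FPKM in DMEM + 1)) over the 12334 measured rows (grey), with the 5 measured members as vertical lines, blue for lower and orange for higher in SCM. Dashed lines mark 2-fold, and the few rows beyond the ends of the axis are not drawn. Sort1 at 1.88 lies beyond the upper line, and Ngfr at -0.93 lies just inside the lower one.

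In the authors' table Ngfr lies on chromosome 11, from 95459644 to 95478561 on the minus strand, and Sort1 on chromosome 3, from 108191398 to 108268827 on the plus strand. Bdnf is listed on chromosome 2 from 109505045 to 109557352, Ntrk2 on chromosome 13 from 58954383 to 59281784, and Nradd on chromosome 9 from 110450203 to 110453520. None of the 8 genes has its GRCm38 position of GENCODE M21 in the table (0 of 8). Of the 52046 gene IDs also in GENCODE M21, 1457 had the same position and 50022 the same span at another position. The authors' positions are thus mostly not those of GRCm38, and their build was not identified. The sequences shown carry their own GRCm38 positions. All 8 are protein-coding rows. Other rows overlapping a member within its span, 11 in all, had at most 3 reads in DMEM and 10 in SCM.

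Beyond the members, 90 genes of the pathway were looked at by role, and 72 of them were measured. The calls were 4 higher and 1 lower in SCM, set beside the 3.10% and 2.80% of all measured rows, and the median log2 ratio was -0.01. The lists are small, and no difference between them was tested.

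Around p75 at the membrane, 3 of 6 co-receptors and co-receptor ligands were measured. Lingo1, which joins p75 and the Nogo receptor in a complex that restrains axon growth and myelination, had 12.4 FPKM in DMEM and 26.2 FPKM in SCM, 2.12-fold higher (2.0 to 2.2). Rtn4, the gene of Nogo, had 274 FPKM in DMEM and 136 FPKM in SCM, 2.01-fold lower (1.98 to 2.04). Both sat at the edge of the limit, with log2 ratios of 1.02 and -1.0, and Rtn4 was called under 8 of the 12 other settings and Lingo1 under 10. A row overlapping Rtn4 exons had 401 and 716 reads beside the 55637 and 34921 of Rtn4. Tnfrsf19, a receptor that can stand in for p75 in that complex, had 3.05 and 2.99 FPKM. Rtn4r, the gene of the Nogo receptor itself, had 9 and 6 reads, and Mag and Omg, further ligands of it, had 0 reads in both libraries.

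Proneurotrophins are cut inside the cell by furin-type convertases and outside by plasmin and matrix proteases. Of 9 such genes, 4 were measured, 2 were higher and 0 lower, beside 3.10% and 2.80% of all measured rows. Pcsk6, a furin-type convertase gene, had 0.457 FPKM in DMEM and 2.31 FPKM in SCM, 5.05-fold higher (3.91 to 6.60). It passed the 1 FPKM minimum only through the SCM library, and was called under 9 of the 12 other settings. Plat, which encodes the tissue plasminogen activator, had 5.50 and 14.1 FPKM, 2.55-fold higher (2.38 to 2.75). Furin itself was the highest of the list at 17.4 FPKM in DMEM and 16.0 FPKM in SCM. Plg, the gene of plasminogen, had 0 reads in DMEM and 2 in SCM, and Mmp3, Mmp7 and Mmp9 had 0 reads in both libraries.

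Inside the cell the machinery read by p75 and the Trk receptors lay mostly within 2-fold. So did the measured rows as a whole, of which 5.89% were called in either direction, and no list was tested against that share. p75 is shed by ADAM proteases and then cut by gamma-secretase, and 8 of 9 such genes were measured with 0 called in either direction and a median log2 ratio of 0.08. The highest of them, Adam10, had 205 FPKM in DMEM and 219 FPKM in SCM. Of 14 intracellular adaptors of p75, 13 were measured, 0 were called and the median was -0.08. Arhgdia, a GTPase dissociation inhibitor that binds p75, was highest at 299 and 271 FPKM. Among them Maged1, also known as NRAGE, had 146 and 130 FPKM and Bex3, also known as NADE, 70.2 and 70.6 FPKM.

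Of 36 Trk adaptors and effectors, 33 were measured and their median was -0.07. In this list 1 gene was called higher and 0 lower, beside 3.10% and 2.80% of all measured rows. The higher gene was Pik3r1, a regulatory subunit of phosphoinositide 3-kinase, at 10.7 FPKM in DMEM and 42.7 FPKM in SCM, 3.99-fold higher (3.84 to 4.15). Its log2 ratio of 1.90 was the highest of the pathway. The gene was called under all 12 other settings, some of which could not remove a call. This subunit serves many receptors besides the Trk family. Kidins220, a scaffold of Trk signalling, was the highest gene of the list at 59.0 and 63.7 FPKM. Of 11 genes of receptor transport and degradation, counted with the member Ntrk2, 10 were measured and 0 were called. Nedd4, a ubiquitin ligase gene, was their highest at 261 and 276 FPKM, and Ehd4, which acts in Trk endocytosis, had 13.1 and 24.6 FPKM.

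**Figure D4:**
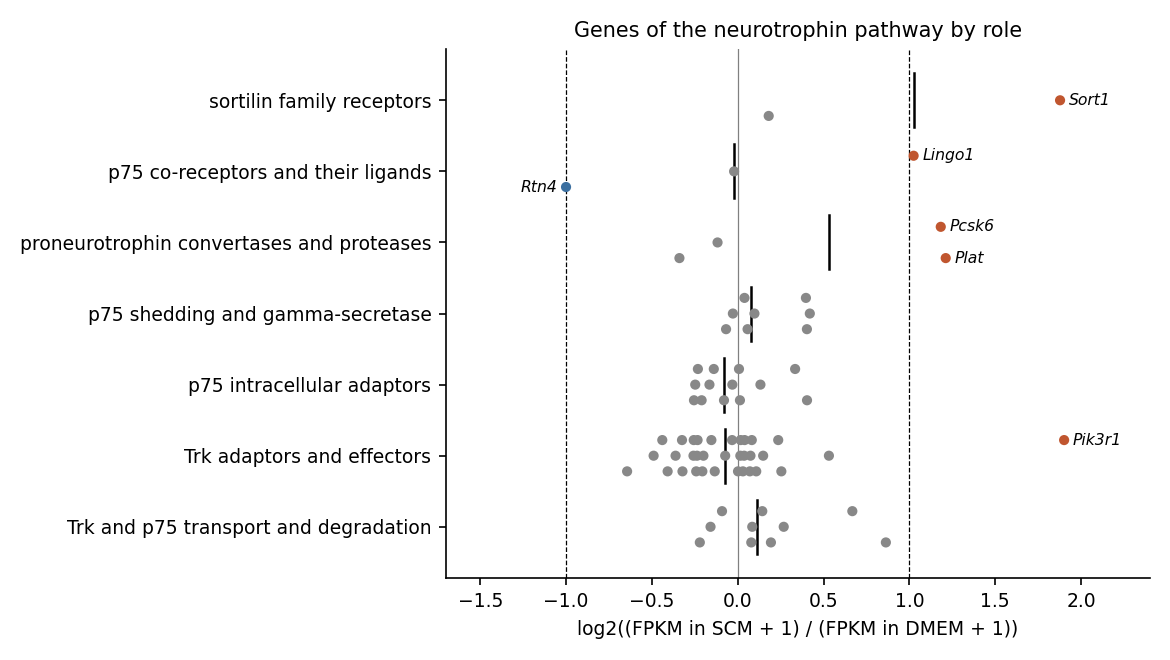
log2((FPKM in SCM + 1) / (FPKM in DMEM + 1)) of the measured genes in each list of the neurotrophin pathway. The members Sort1 and Ntrk2 are drawn in the lists that hold them. Points are single genes (orange called higher, blue called lower, grey within 2-fold; vertical offsets only separate points), black bars are list medians and dashed lines mark 2-fold. Sort1, Lingo1, Pcsk6, Plat and Pik3r1 lie at or beyond the upper line and Rtn4 at the lower one.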

How the data were processed

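The deposited table gives FPKM for 55323 rows in 2 libraries, 1 per medium, with the gene lengths, as the authors made them. Per the submitters' processing notes, STAR 2.7.9a, featureCounts 2.0.1, Trimmomatic 0.39, cutadapt 3.1 and Trim Galore were used, with the builds GRCm38.p6 and mm10 named. Most gene positions given by the authors differ from those of GENCODE M21 on GRCm38. No source used here gives the strand setting of the counting. FPKM times length, divided by the value of 1 read in that library, was whole within 0.01 in 100% of rows of both libraries.

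The measure was log2 of the FPKM ratio with a pseudocount of 1, for rows at 1 FPKM or more in 1 or both libraries, called at 2-fold. A floor of 3 reads stood for 0 reads. No count model was fitted to 1 library per medium. The steps were tested on simulated reads with counting noise alone, which hold no spread between libraries or cultures. Python 3.11.15, numpy 2.4.6, pandas 2.3.3 and scipy 1.17.1 were used.

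The members and lists were chosen with earlier results of these data known. Named genes were the 8 members, the called genes of each list and its highest gene. Those outside this rule (Tnfrsf19, Rtn4r, Mag, Omg, Plg, Mmp3, Mmp7, Mmp9, Sorl1, Sorcs1, Sorcs3, Maged1, Bex3, Ehd4, Sox10, S100b, Erbb3, Foxd3, Cdh19, Egr2, Gfra1, Spry2, Wasf1) were picked with their values in view. A few genes of the lists are counted but not reported here by name. Alternatives changed the pseudocount, filter, scaling, unit, rows, fold and length.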

Additional observations from a re-analysis of the deposited data

How the results depend on the processing

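No paired analysis was possible because each medium has 1 library. Sort1 was called higher under all 12 alternatives, and Bdnf, Ngfr, Ntrk2, Sort1 and Nradd kept the sign of their log2 ratio in each. Many of these outcomes were fixed in advance. The filters, fold limits and counting interval leave each log2 ratio unchanged, and a pseudocount added to both libraries cannot turn its sign. A call at 2-fold cannot be lost by dropping the filter, with a pseudocount of 0.1 or at 1.5-fold. Over all rows the numbers higher and lower were 681 and 625 with a pseudocount of 0.1, 148 and 131 with a pseudocount of 3, 210 and 165 with a filter of 5 FPKM, 1011 and 1145 in TPM, 974 and 928 at 1.5-fold and 91 and 87 at 3-fold, and protein-coding rows alone had 148 lower. Members called higher numbered 2 with a pseudocount of 0.1, in RPM, at 1.5-fold and with the median transcript length, Ntrk2 being the added gene, and 1 member, Ngfr, was called lower at 1.5-fold. Of the other pathway genes, those lower numbered 2 with a pseudocount of 0.1 and in TPM, 3 at 1.5-fold, and 0 with a pseudocount of 3, median-ratio scaling, trimmed mean scaling and 3-fold, while those higher numbered 2 with a pseudocount of 3 and 1 at 3-fold. Ngfr over the next highest member, 314 in DMEM and 125 in SCM, was 353.7 and 56.7 in RPM, and, with lengths chosen after seeing the data, 138 and 76.1 (median transcript) and 211 and 112 (longest transcript). Depth limits Ntf3, Ntf5 and Ntrk3, at 50 reads or fewer.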

Other observations

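Gene Ontology terms in the authors' table that name neurotrophins gave a wider set, looked at after the other results were known. Of its 49 rows 35 were measured, 3 were higher and 0 lower (3.10% and 2.80% of all measured rows), Sort1 and Pik3r1 among them, and the median log2 ratio was 0.02. Leaving out the members and the listed pathway genes, 19 measured rows had 1 higher and 0 lower. That gene was Gfra1, a co-receptor of GDNF, with 223 FPKM in DMEM and 583 FPKM in SCM, 2.62-fold higher (2.59 to 2.65). Spry2, an inhibitor of receptor tyrosine kinase signalling, had 22.5 and 30.4 FPKM. Wasf1, an actin regulator, had 5.94 FPKM in DMEM and 3.29 FPKM in SCM.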
